A study of Mus musculus with 9 samples.

Results

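The genes described here are the paired box transcription factors *Pax7*, *Pax3*, *Pax6*, *Pax2*, *Pax5* and *Pax8*, chosen by symbol. The choice was made because *Pax7* had no reads in *Fezf2+/+* cortex and was taken as present in *Fezf2-/-* cortex only. Of these 6 genes, 4 had values that could be examined among the 24624 genes of the table, and *Pax3* and *Pax8* were not analysed here, nor were the other 3 mouse paired box genes *Pax1*, *Pax4* and *Pax9*. *Pax7* and *Pax6* were abundant enough, with a mean of at least 10 over the 9 libraries, to enter the test across 16197 genes. Because the *Pax7* values chose the set, they are given below as a description with no test.

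Polyadenylated RNA was sequenced from the cortex of newborn (P0) mouse pups, 1 library from the pair of cortical hemispheres of each pup. The 3 *Fezf2+/+* libraries are bc201 and bc202 of litter m1 and bc203 of litter m2, and they carry the intact gene. The 4 *Fezf2-/-* libraries are bc205 and bc206 of litter m1 and bc204 and bc207 of litter m3, from pups homozygous for a null allele in which a PLAP reporter is knocked in. The 2 *Fezf2-/-; Fezf2-EnR* libraries, called EnR libraries below, are bc208 of litter m3 and bc209 of litter m2. These pups are homozygous for the same null allele and also carry a bacterial artificial chromosome transgene, in which the DNA-binding domain of FEZF2 is fused to the repressor domain of engrailed and inserted at the *Fezf2* start codon. The transgene is thus driven by *Fezf2* regulatory sequence, in cells that lack FEZF2 itself. The libraries hold 18716575 to 25127623 reads, and 1 read is worth 0.8306 to 1.0926 units of the deposited values, which are reads per gene divided by a size factor and are called normalized values here. *Fezf2* itself, the gene targeted, was read at 979 to 1232 in *Fezf2+/+*, at 193 to 242 in *Fezf2-/-* and at 907.00 and 1000.86 in the EnR libraries. Whether reads of the EnR libraries came from the transgene was not tested.

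Paired box factors bind DNA through the paired domain, and *Pax3*, *Pax7* and *Pax6* encode a homeodomain as well. *Pax3* and *Pax7* are close paralogs that mark the dorsal neural tube, the neural crest and muscle precursors, and *Pax7* continues in the dorsal midbrain and in the satellite cells of skeletal muscle. *Pax6* marks the radial glia that give rise to cortical neurons, and *Pax2*, *Pax5* and *Pax8* mark the midbrain-hindbrain boundary, with *Pax5* also a B lymphocyte factor. *Pax7* is not counted among the markers of the neocortex. FEZF2 is a zinc finger transcription factor of deep-layer cortical neurons that acts as a repressor.

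Because these genes resemble one another, the sequences are shown first, to let the reader see how far reads of one member could be taken for another. The stretch below is 90 bases of coding sequence at the start of the paired box of *Pax7*, in exon 2 at chr4:139830265-139830354 on the minus strand of GRCm38, read from the GENCODE M21 transcripts and followed by the stretch of each other member that matched it best, with the bases that differ from *Pax7* in capitals.
Pax7: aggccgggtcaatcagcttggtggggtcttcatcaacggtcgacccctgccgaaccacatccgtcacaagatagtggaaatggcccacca
Pax3: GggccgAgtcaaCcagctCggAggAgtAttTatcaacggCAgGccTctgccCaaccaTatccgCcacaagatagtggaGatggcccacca
Pax6: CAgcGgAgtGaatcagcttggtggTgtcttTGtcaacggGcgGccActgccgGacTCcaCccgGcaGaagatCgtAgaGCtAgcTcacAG
Pax2: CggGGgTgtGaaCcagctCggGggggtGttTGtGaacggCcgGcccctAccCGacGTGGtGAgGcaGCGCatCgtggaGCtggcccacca
Pax5: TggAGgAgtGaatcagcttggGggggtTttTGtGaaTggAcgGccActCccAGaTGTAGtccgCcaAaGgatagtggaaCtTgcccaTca
Pax8: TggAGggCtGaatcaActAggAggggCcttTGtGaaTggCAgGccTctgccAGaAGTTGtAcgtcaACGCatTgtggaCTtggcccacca

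*Pax3* shared 74 of the 90 bases with *Pax7*, *Pax6* 65, *Pax5* 62, *Pax2* 59 and *Pax8* 58. The longest unbroken run that a *Pax7* transcript shared with a *Pax3* transcript was 26 bases, ctggaagtgtccacccctcttggcca, which ends just before the stretch shown and spans the junction of exons 1 and 2. Over all 141767 annotated transcripts on both strands, 90 other genes shared a run of at least 25 bases with *Pax7*, and none of them a run over 28 bases. No paired box gene other than *Pax3* shared a run of at least 25 bases with *Pax7*. These runs are shorter than one sequenced end of the read pairs. Only exact runs were searched, and how reads with mismatches were assigned was not tested.

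*Pax7* (ENSMUSG00000028736.13) lies on the minus strand at chr4:139737062-139833528 in GRCm38, with 5860 exonic bases in 9 blocks, and no annotated exon of another gene overlapped its exons. Its normalized value was 0 in each of the *Fezf2+/+* libraries bc201, bc202 and bc203. It was 39.17 in bc204, 81.72 in bc205, 66.72 in bc206 and 42.36 in bc207 of *Fezf2-/-*. It was 0 in bc208 and 1.09 in bc209 of the EnR libraries. The 4 *Fezf2-/-* libraries thus stood above the 5 others with no overlap, and the *Fezf2+/+* and EnR libraries could not be told apart, since the value of bc209 is 1 read.

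In reads, *Pax7* had 229 in the *Fezf2-/-* libraries together, 0 in the *Fezf2+/+* libraries and 1 in the EnR libraries. The mean normalized value in *Fezf2-/-* was 57.5 ± 20.3 (SD, n = 4). A count of 0 allows up to 3 reads in a library, which is a normalized value of at most 3.16 in the *Fezf2+/+* libraries, so the *Fezf2-/-* mean was at least 18.2-fold higher than that limit. The level in the EnR libraries was 0.927% of that in *Fezf2-/-*, from 1 read against 229 scaled by the value of a read in each library. Its exact 95% interval, from 0.0234% to 5.22%, covers counting error only, as do the limits for counts of 0. Reads were pooled over libraries, so the spread between libraries is left out, and *Pax7* was chosen by these same values. In bulk tissue, fewer cells with *Pax7* RNA and less *Pax7* RNA per cell cannot be told apart.

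The *Fezf2-/-* libraries differed among themselves by 2.09-fold from lowest to highest, and they fell by litter. Those of litter m1 averaged 74.2 and those of litter m3 averaged 40.8, with 2 libraries in each and no overlap, which was not tested. Within litter m1, *Pax7* was 0 in both *Fezf2+/+* libraries and 81.72 and 66.72 in the *Fezf2-/-* libraries. Within litter m3 it was 39.17 and 42.36 in *Fezf2-/-* and 0 in the EnR library. Litter m2 holds no *Fezf2-/-* library, and its *Fezf2+/+* library was at 0 and its EnR library at 1.09.

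**Figure D1:**
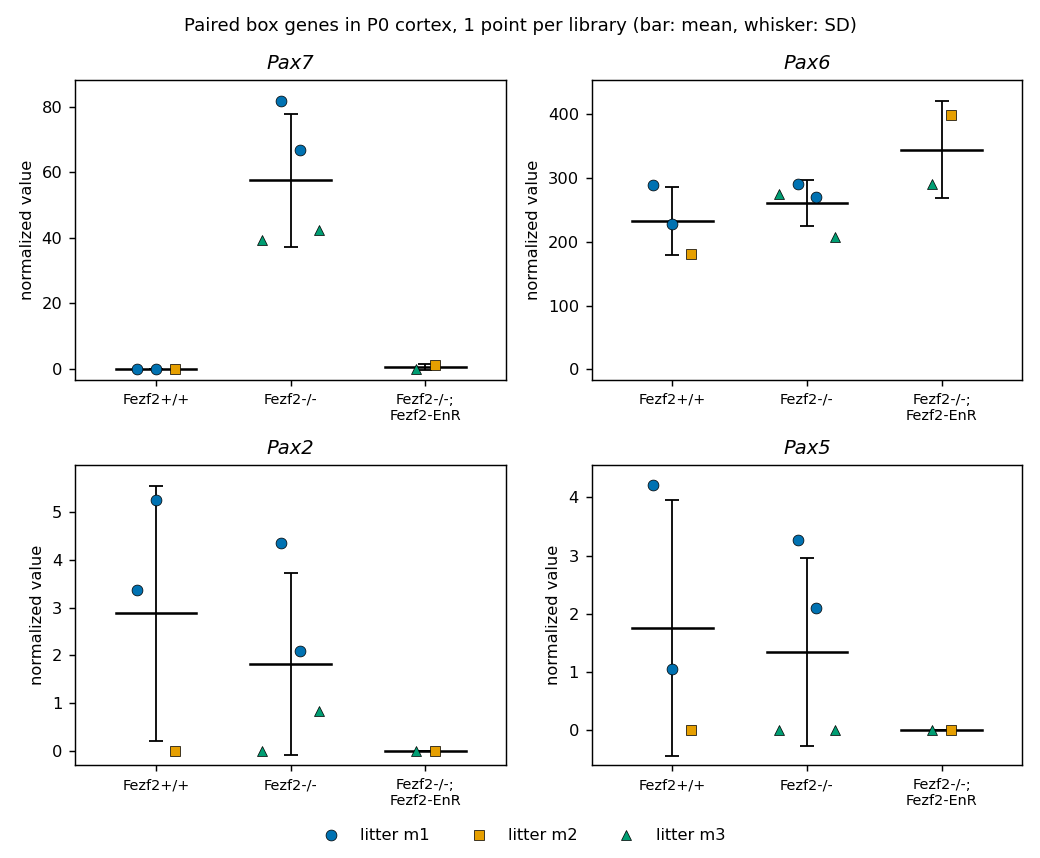
Normalized values (reads divided by a size factor, linear axes) of *Pax7*, *Pax6*, *Pax2* and *Pax5* in the 9 libraries by genotype, each point 1 library marked by litter, with the mean as a bar and the SD as a whisker. *Pax7* lay between 39.17 and 81.72 in *Fezf2-/-* and at 0 or 1.09 elsewhere, and *Pax2* and *Pax5* stayed under 6. *Pax6* was read in every library, and its *Fezf2-/-* values overlapped those of both other genotypes. Its EnR values (290.72 and 397.72) lay above those of *Fezf2+/+* (at most 288.09), and the share of all genes with that pattern is not reported here.

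All 4 *Fezf2-/-* libraries had Y-linked *Ddx3y* reads, from 1211 to 1600, whereas both EnR libraries had 0, with *Xist* at 7895 and 12203, so the transgene and the sex of the pups cannot be told apart in the comparison of those groups. In *Fezf2+/+* the sexes were mixed, and *Pax7* was 0 in the *Xist*-high library bc201 and in bc202 and bc203. Libraries bc204 and bc208 of litter m3 stood apart by *Six3* (96.4 and 58.7) and *Isl1* (139 and 38.8), which were at most 17.9 in the *Fezf2+/+* libraries. *Pax7* was 39.17 in the first of these and 0 in the second, and it was read in the 3 *Fezf2-/-* libraries without bc204.

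Over the whole table, 546 genes had no read in any *Fezf2+/+* library, and *Pax7* was the 1 gene among them with at least 10 reads in each *Fezf2-/-* library. *Pax7* was chosen for being absent in *Fezf2+/+* and present in *Fezf2-/-* only. This is thus a description and no independent result, as are its low values in the EnR libraries. In the other direction, 1 gene had no read in *Fezf2-/-* and at least 10 in each *Fezf2+/+* library. That gene, RP23-304L22.4, was named after its values were seen, at 65.05, 28.41 and 196.02 in *Fezf2+/+* and 1 read in each EnR library. A pattern in which every *Fezf2-/-* library lay above the 5 others was met by 2.22% of the genes tested, 360 of 16197. *Pax7* meets this broader pattern because of how it was chosen.

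To set the level of *Pax7* beside that of its paralogs, values were divided by length. Per kilobase of annotated exon, *Pax7* was 9.8 ± 3.45 (SD, n = 4; range 6.68 to 13.9) in *Fezf2-/-*, where *Pax6* was 22.3 ± 3.1. Within a library, *Pax7* per kilobase was 28.5% of *Pax6* per kilobase in bc204, 55.8% in bc205, 49.4% in bc206 and 40.6% in bc207. *Pax2* and *Pax5* in the same 4 libraries averaged 0.336 ± 0.351 and 0.151 ± 0.183 per kilobase. Annotated exon of all isoforms was used, so that these levels depend on which isoforms were present, which was not tested.

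*Pax6* (ENSMUSG00000027168.21) lies on the plus strand at chr2:105668900-105697364 and was read in every library. Its normalized value was 288.09, 228.30 and 181.27 in the *Fezf2+/+* libraries bc201, bc202 and bc203. It was 274.18, 290.93, 270.01 and 207.65 in the *Fezf2-/-* libraries bc204 to bc207, and 290.72 and 397.72 in the EnR libraries bc208 and bc209. The *Fezf2+/+* and *Fezf2-/-* values overlapped, and the highest value of the 9 libraries was that of bc209.

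*Pax6* was not called in any comparison at an adjusted p under 0.05 (limma, Benjamini-Hochberg over 16197 genes). In *Fezf2-/-* against *Fezf2+/+*, 0.858% of genes were called, and the log2 fold change of *Pax6* was 0.18 (SE 0.18, 95% interval -0.21 to 0.57, limma adjusted p = 0.769). An exact two-sided permutation test over the 35 splits of those libraries gave p = 0.371, where the smallest possible p is 0.0286. Without the *Fezf2+/+* library bc203 the log2 fold change was 0.01. Within litter m1 alone it was 0.13, and with litter as a block 0.29.

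In the EnR libraries against *Fezf2-/-*, where 0.766% of genes were called, the log2 fold change of *Pax6* was 0.39 (SE 0.20, 95% interval -0.05 to 0.83, limma adjusted p = 0.339). The exact two-sided permutation test gave p = 0.133, where 0.0667 is the smallest that 15 splits allow. Against *Fezf2+/+*, where 0.117% of genes were called, the log2 fold change was 0.57 (SE 0.21, 95% interval 0.11 to 1.04, limma adjusted p = 0.186). With 10 splits the exact permutation p was 0.2, and the smallest possible is 0.1, so this design cannot reach 0.05. At an unadjusted p under 0.05 *Pax6* passed in the last comparison alone, and edgeR and DESeq2 on recovered reads called it in none. Without bc204 and bc208, left out after the data were seen, its log2 fold changes in the 3 comparisons were 0.15, 0.65 and 0.80. Without bc209, the library with the highest *Pax6* value, those of the EnR library bc208 alone were 0.17 against *Fezf2-/-* and 0.35 against *Fezf2+/+*. Comparisons that involve the EnR libraries share those 2 libraries. A *Pax6* antisense transcript, *Pax6os1*, has no exonic overlap with *Pax6* and averaged 3.59.

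*Pax2* (ENSMUSG00000004231.15, chr19:44756045-44837871, plus strand) was at 3.38 in bc201, 5.26 in bc202 and 0 in bc203 of *Fezf2+/+*. It was at 0 in bc204, 4.36 in bc205, 2.09 in bc206 and 0.83 in bc207 of *Fezf2-/-*, and at 0 in both EnR libraries. These values are from 0 to a few reads, at or near the limit that a count of 0 allows.

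*Pax5* (ENSMUSG00000014030.15, chr4:44524757-44710487, minus strand) was at 4.22 in bc201, 1.05 in bc202 and 0 in bc203. It was at 3.27 in bc205 and 2.09 in bc206, at 0 in the *Fezf2-/-* libraries bc204 and bc207, and at 0 in both EnR libraries. Its exons overlap those of *Gm12462* on the other strand by 125 bases and those of *5730488B01Rik* by 636 bases, so reads of these genes may not be told apart.

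Neither *Pax2* nor *Pax5* reached the mean of 10 needed for the test. With a mean of at least 1 as the filter, the difference of *Fezf2-/-* from *Fezf2+/+* on the log2 scale was -0.36 (SE 0.71, limma adjusted p = 0.914) for *Pax2* and -0.21 (SE 0.69, limma adjusted p = 0.953) for *Pax5*. The 95% intervals, from -1.91 to 1.19 and from -1.73 to 1.31, are wide. For both genes every litter m1 library lay above the 5 libraries of the other litters, a pattern met by 1.66% of the 8427 genes with a mean under 10, in which 4 libraries of litter m1 are compared with 5 others. Whether *Pax2* or *Pax5* differed between litters was not tested.

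The genes whose values followed those of *Pax7* most closely over the 9 libraries were *Figf*, now named *Vegfd*, with a Pearson correlation of 0.994 of log2(value + 1), then *Fzd10* (0.984), *Fosl2* (0.973), *Eepd1* (0.971) and *Kazn* (0.97). The 9 points share their genotypes, with 4 high and 5 low libraries, so any gene high in *Fezf2-/-* alone correlates with *Pax7*. Since they were picked by that likeness, their values are given as a description, with no test.

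*Figf*, which encodes the lymphatic growth factor VEGFD, was 101 to 108 in *Fezf2+/+*, 404 to 524 in *Fezf2-/-* and 99.6 to 113 in the EnR libraries. *Fzd10*, a Frizzled receptor for Wnt ligands, was 14.4 to 19, 39.2 to 48 and 17.9 to 18.6 in the same order. *Fosl2*, a subunit of the AP-1 transcription factor, was 1418 to 1489, 3508 to 4585 and 1581 to 1630. *Eepd1*, an endonuclease of DNA repair, was 180 to 198, 346 to 373 and 200 to 220. *Kazn*, a cytoskeletal linker at desmosomes, was 1509 to 1555, 2017 to 2314 and 1476 to 1574. *Pax7* differed from these 5 genes in having no reads in *Fezf2+/+*, whereas each of them was read in all 9 libraries.

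**Figure D2:**
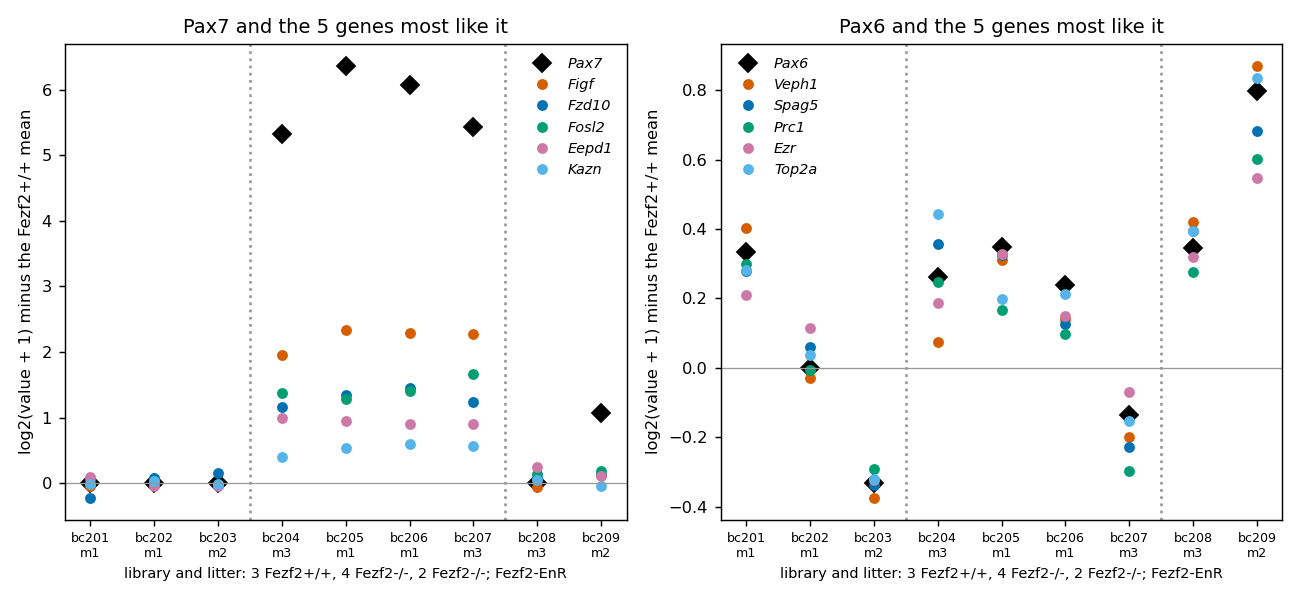
Values in each of the 9 libraries of *Pax7* (left) and *Pax6* (right), as diamonds, and of the 5 genes most like each, as circles, on the log2(value + 1) scale minus the *Fezf2+/+* mean. *Pax7* and the 5 genes lay above 0 in all 4 *Fezf2-/-* libraries and near 0 in the others, except *Pax7* in bc209, whose 1 read appears as about 1 on this scale, while *Pax6* and its 5 genes spread within each genotype and were highest in bc209.

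The genes most like *Pax6* were *Veph1* (0.976), *Spag5* (0.971), *Prc1* (0.969), *Ezr* (0.967) and *Top2a* (0.965). *Spag5* encodes a protein of the mitotic spindle, *Prc1* a regulator of cytokinesis and *Top2a* the topoisomerase of dividing cells, and *Ezr* encodes ezrin, a linker of membrane and cytoskeleton. *Top2a* was 520 to 788 in *Fezf2+/+*, 583 to 882 in *Fezf2-/-* and 853 to 1158 in the EnR libraries. *Veph1* was 153 to 263, 173 to 246 and 266 to 364.

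*Pax7* lies between *Aldh4a1*, *Gm21969* (RP23-334I5.4 in the table) and *Tas1r2* on one side and *Klhdc7a*, *Igsf21* and *Arhgef10l* on the other. *Aldh4a1* (87.4 kb away) had a log2 fold change of -0.07 in *Fezf2-/-* against *Fezf2+/+* (limma adjusted p = 0.874). *Igsf21*, the nearest tested gene on the other side at 193 kb, had 0.33 (SE 0.10, limma adjusted p = 0.26), with 983 to 1090 in *Fezf2+/+* and 1280 to 1367 in *Fezf2-/-*, and in the EnR libraries against *Fezf2-/-* had -0.56 (limma adjusted p = 0.0686). *Gm21969* (0.10) and *Arhgef10l* (0.02) were not called either, *Klhdc7a* reached at most 7.96, and *Tas1r2* was not analysed here. None of the neighbours tested passed at an adjusted p under 0.05. *Kazn*, named above for its likeness to *Pax7*, is on the same chromosome at a distance of 2.27 Mb.

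Markers of the tissues that express *Pax7* or *Pax3* were next summed over each library. For skeletal muscle and its precursors, 12 of 17 listed genes were examined and 6 tested, and 0 were called by limma in any comparison, or by edgeR or DESeq2 on recovered reads. At an unadjusted p under 0.05, 1752 of all 16197 genes passed in *Fezf2-/-* against *Fezf2+/+* and 2741 in the EnR libraries against *Fezf2-/-*. Of the 6 list genes tested, 1 and 2 passed in these comparisons. In *Fezf2-/-* against *Fezf2+/+* their median log2 fold change was 0.21, where the median of all genes tested was 0.00, and in the EnR libraries against *Fezf2-/-* it was -0.45. The summed level was 177 to 183 in *Fezf2+/+*, 181 to 230 in *Fezf2-/-* and 138 to 175 in the EnR libraries. *Acta1*, skeletal actin, had the highest mean of the list, at 42.2 to 65.2 in *Fezf2+/+* and 60.6 to 71.3 in *Fezf2-/-*. *Cdh15*, M-cadherin of muscle satellite cells, had the largest change, with a log2 fold change of -1.29 (SE 0.68, limma adjusted p = 0.544). It was at 5.45 and 5.21 in the litter m1 *Fezf2-/-* libraries and at 34.15 and 39.04 in those of litter m3, against 28.41 to 45.32 in *Fezf2+/+*. The log2 fold changes of the other 5 tested genes were above 0. Among them, *Myh8*, a developmental myosin heavy chain, was 17.43 to 27.41 in *Fezf2-/-* and at most 14.73 in the 5 other libraries, with a log2 fold change of 0.86 (SE 0.27, limma adjusted p = 0.255). The defining muscle genes *Myog* and *Ckm* were at or near 0, with at most 3.13 and 1.66, and *Myf5* and *Myod1* were not analysed here.

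For the dorsal midbrain and pretectum, where *Pax7* is a known marker, 13 of 17 genes were examined and 4 tested. Of these 4, 0 were called by limma, edgeR or DESeq2. At an unadjusted p under 0.05, 1752 of all 16197 genes passed in *Fezf2-/-* against *Fezf2+/+*. In the EnR libraries 2741 passed against *Fezf2-/-* and 3118 against *Fezf2+/+*. Of the 4 list genes tested, 1 passed in each comparison. The median difference on the log2 scale was 0.21 between *Fezf2-/-* and *Fezf2+/+* and -0.11 in the EnR libraries against *Fezf2-/-*. The summed level was 100 to 129, 111 to 167 and 122 to 153 in *Fezf2+/+*, *Fezf2-/-* and the EnR libraries. *Tal1*, with the highest mean, was 30.6 to 33.7 in *Fezf2+/+* and 30.7 to 37.2 in *Fezf2-/-*, and *Barhl2*, with the largest change, had a log2 fold change of 1.49 (SE 0.53, limma adjusted p = 0.325). *Otx2*, *En1* and *En2*, which define the midbrain, were at most 3.01, 2.53 and 4.37 in any library. For the midbrain-hindbrain boundary, 4 of 7 genes were examined and 0 reached the test, and their summed level was 0 to 4.2, 1 to 10 and 5.5 to 8. For the thalamus and diencephalon, 7 of 8 genes were examined and 4 tested, 0 were called by limma, edgeR or DESeq2 and 1 had an unadjusted p under 0.05 against *Fezf2+/+*, and *Fezf2-/-* differed from *Fezf2+/+* by a median of 0.43 on the log2 scale. *Nkx2-2* and *Lhx9*, the named genes of that list, had log2 fold changes of 0.51 (SE 0.27) and 1.37 (SE 0.42, limma adjusted p = 0.255).

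For the neural crest and melanocyte list every *Fezf2-/-* library stood above the 5 others, with a summed level of 306 to 337 in *Fezf2+/+*, 406 to 452 in *Fezf2-/-* and 327 to 338 in the EnR libraries. Of 8 genes, 6 were examined, 3 were tested and 0 were called by limma in any comparison, and the median difference of *Fezf2-/-* from *Fezf2+/+* was 0.34 on the log2 scale. In that comparison 1752 of all 16197 genes had an unadjusted p under 0.05, edgeR on recovered reads called 142 and DESeq2 called 315. Of the 3 list genes, 2 had an unadjusted p under 0.05, edgeR called 0 and DESeq2 called 1. Most of that level was *Sox10*, which oligodendrocyte precursors of the cortex also express, at 265 to 293, 334 to 365 and 276 to 300, with a log2 fold change of 0.34 (SE 0.08, limma adjusted p = 0.11). The melanocyte enzyme gene *Dct* was 0.84 to 4.21, 7.48 to 42.2 and 2.19 to 6.97, with a log2 fold change of 2.75 (SE 0.57, limma adjusted p = 0.0635). The part of these cells in the *Pax7* reads was not tested. How often sums of other gene lists separate the *Fezf2-/-* libraries in this way was not tested either.

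**Figure D3:**
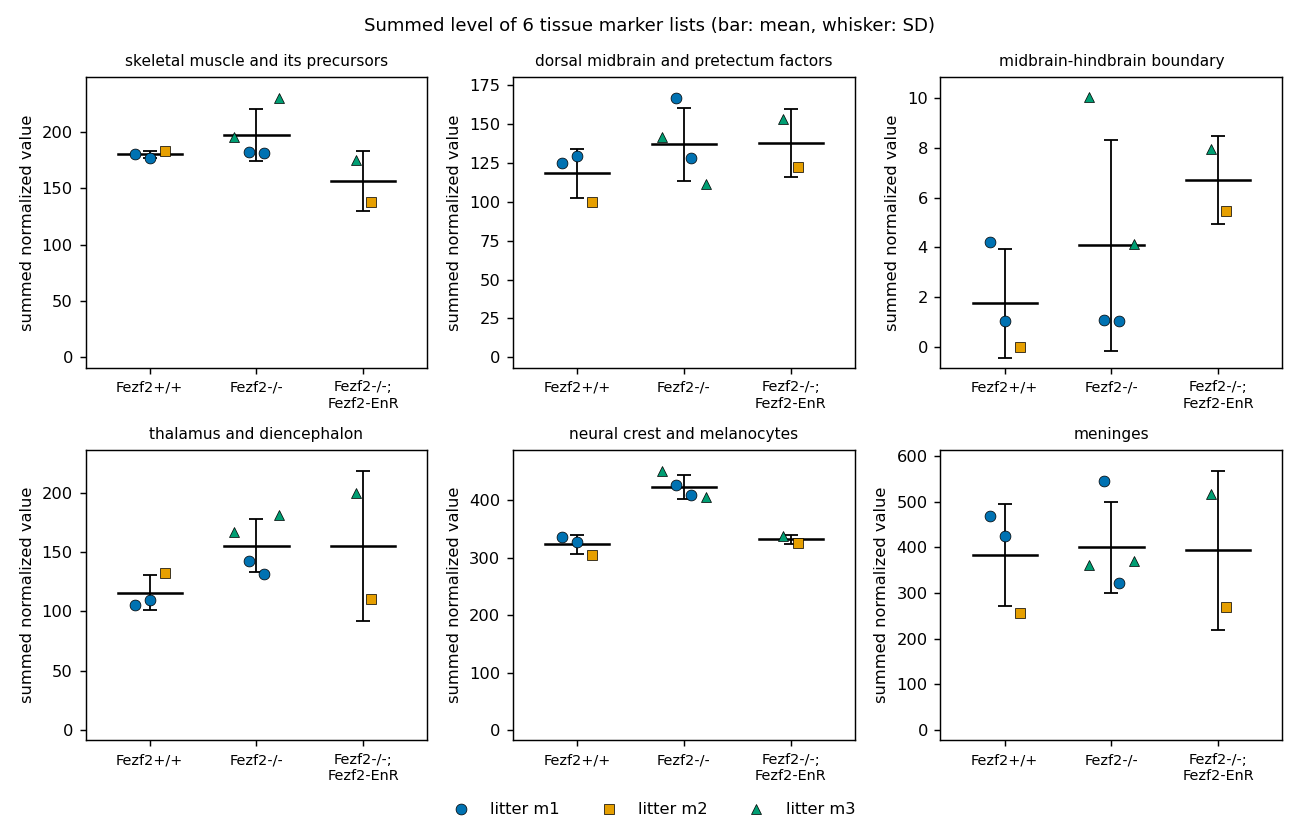
Summed normalized values of 6 marker lists, of tissues in which paired box genes are known to act or that lie beside the cortex, in the 9 libraries by genotype, each point 1 library marked by litter, with the mean as a bar and the SD as a whisker. The neural crest list lay at 406 to 452 in *Fezf2-/-*, above the other libraries. The muscle list lay lower in the EnR libraries (138 to 175) than in *Fezf2-/-* (181 to 230) and *Fezf2+/+* (177 to 183), which overlapped. The midbrain-hindbrain boundary list was at 0 to 4.2 in *Fezf2+/+*, 1 to 10 in *Fezf2-/-* and 5.5 to 8 in the EnR libraries. The dorsal midbrain, thalamus and meninges lists overlapped between *Fezf2-/-* and both other genotypes.

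For the meninges, 10 of 10 genes were examined and 6 tested, with a summed level of 257 to 469, 321 to 546 and 270 to 517. The 1 gene of this list that was called was *Lum*, which encodes the proteoglycan lumican. It fell in *Fezf2-/-* against *Fezf2+/+* (log2 fold change -2.40, SE 0.39, limma adjusted p = 0.0176) and rose in the EnR libraries against *Fezf2-/-* (2.30, SE 0.44, limma adjusted p = 0.0426). The first call was lost without bc201 (-2.29), bc202 (-2.45) or bc203 (-2.45). The other was lost without any 1 of the 9 libraries, with values from 1.86 (without bc208) to 2.74 (without bc209), and with litter as a block (2.43, limma adjusted p = 0.0701). *Col3a1*, with the highest mean, was 68.5 to 145, 99.7 to 175 and 80.9 to 135. The choroid plexus genes (7 of 7 examined, 0 tested) summed to 16 to 28.4, 16.7 to 39.1 and 9.8 to 29.9. The B lymphocyte genes, for *Pax5*, had 2 of 6 examined and 0 tested, and summed to 3.2 to 11, 9 to 11.5 and 6.6 to 22.9.

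Cortical identity genes were read in every library, with *Tbr1*, a factor of deep-layer neurons, at 6055 to 6527 in *Fezf2+/+*, 5660 to 6783 in *Fezf2-/-* and 6595 to 7888 in the EnR libraries. In *Fezf2-/-* against *Fezf2+/+*, 139 of all 16197 genes were called. The 7 cortical identity genes tested had a median of -0.11 there. Of these 7, *Emx1*, a factor of dorsal cortex, was called lower, with a log2 fold change of -0.44 (SE 0.08, limma adjusted p = 0.0296). That call was lost when any 1 of the *Fezf2+/+* or *Fezf2-/-* libraries was left out, with values from -0.49 (without bc201) to -0.40 (without bc202 or bc206). The ventral telencephalon and olfactory bulb list had 10 of 10 genes examined and 9 tested, and a median of 0.47 in that comparison, with all 9 of them above 0. Of all 16197 genes, 1752 had an unadjusted p under 0.05 in that comparison and DESeq2 called 315. Of the 9 list genes, none was called by limma or edgeR, 6 had an unadjusted p under 0.05 and DESeq2 called 5. The summed level of the list was 3897 to 4086 in *Fezf2+/+*, 5263 to 6258 in *Fezf2-/-* and 4320 to 5101 in the EnR libraries. The *Fezf2-/-* sums thus stood above the 5 others. Among single genes tested, 2.22% met that pattern, and how often sums of other gene lists meet it was not tested. The named genes of this list were *Dlx1* (0.23, SE 0.07) and *Sp8* (0.77, SE 0.15, limma adjusted p = 0.0511), both transcription factors of interneurons.

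*Pax6* acts in cortical radial glia, so the genes of that lineage were examined beside it. Of 17 genes, 17 were examined and 15 tested. None was called in *Fezf2-/-* against *Fezf2+/+*, where the median log2 fold change was 0.08, or in the EnR libraries against *Fezf2+/+*, where it was 0.34. Of all 16197 genes tested, 1752 and 3118 passed at an unadjusted p under 0.05 in these comparisons, and DESeq2 called 315 and 641. Of the 15 list genes, 3 and 10 passed, edgeR called 0 in both, and DESeq2 called 0 and 6. In the EnR libraries against *Fezf2-/-*, 2741 of all genes passed at an unadjusted p under 0.05 and DESeq2 called 454. In that comparison limma called 124 of all 16197 genes and 1 gene of the list, and the median of the list was 0.26. There 6 had an unadjusted p under 0.05, edgeR called 2 and DESeq2 called 3, and with 1 library left out limma called 0 to 3. The gene called by limma was *Eomes*, the factor of intermediate progenitors, which rose with a log2 fold change of 1.88 (SE 0.36, limma adjusted p = 0.0426). *Eomes* was 91.7 to 182 in *Fezf2+/+*, 59 to 120 in *Fezf2-/-* and 260 to 506 in the EnR libraries, with no overlap between the last and the others. The share of all genes with that pattern is not reported here. The call was lost without bc201 (1.88), bc202 (1.88), bc204 (1.97), bc205 (1.98), bc206 (1.93), bc207 (1.64) or bc209 (1.4). *Neurog2*, a neurogenic factor of the same lineage, had a log2 fold change of 1.39 (SE 0.28, limma adjusted p = 0.0562), and *Fabp7*, which had the highest mean, 0.07 (SE 0.07, limma adjusted p = 0.624). *Eomes* and *Pax6* were each higher in bc209 than in bc208.

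**Figure D4:**
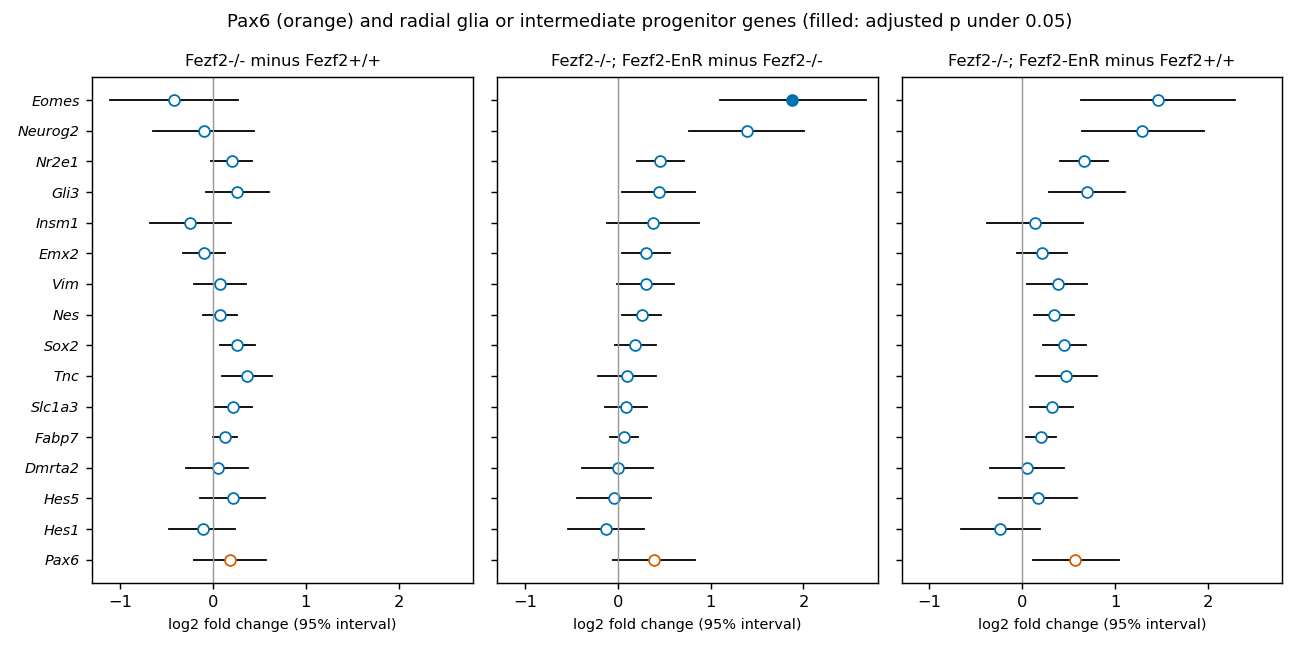
Log2 fold changes (points) with 95% intervals (lines) of *Pax6* (orange) and 15 genes of radial glia and intermediate progenitors (blue), in the 3 comparisons between genotypes, with filled points at an adjusted p under 0.05. *Eomes* in the EnR libraries against *Fezf2-/-*, at 1.88, is the only filled point, and the *Pax6* interval spans 0 in both comparisons with *Fezf2-/-*.

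Paired box factors act with homeodomain factors such as *Six3* and with the Eya and Dach cofactors. Of 12 genes of these families, 11 were examined and 8 tested, and 0 were called in any comparison by limma, edgeR or DESeq2. At an unadjusted p under 0.05, 1752 of all 16197 genes passed in *Fezf2-/-* against *Fezf2+/+*. In the EnR libraries 2741 passed against *Fezf2-/-* and 3118 against *Fezf2+/+*. Of the 8 list genes tested, 1, 0 and 2 passed in the same order. Their median log2 fold change was 0.24 between *Fezf2-/-* and *Fezf2+/+* and 0.18 in the EnR libraries against *Fezf2-/-*. *Eya3*, with the highest mean, was 570 to 673, 616 to 669 and 689 to 764. *Six3* had the largest change, 0.85 (SE 0.82, limma adjusted p = 0.762), and its value was high in bc204.

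The Groucho/TLE corepressors bind to short motifs that some paired box factors, engrailed and FEZF2 share. Of 6 genes tested, 1 was called. *Tle4*, a marker of corticothalamic neurons, fell in *Fezf2-/-* against *Fezf2+/+*, with a log2 fold change of -1.55 (SE 0.10, limma adjusted p = 1.27e-05). It rose in the EnR libraries against *Fezf2-/-* (1.77, SE 0.11, limma adjusted p = 2.35e-05). It was 2642 to 2861 in *Fezf2+/+*, 820 to 990 in *Fezf2-/-* and 2806 to 3664 in the EnR libraries. Its 4 *Fezf2-/-* libraries thus lay below the 5 others, and the share of all genes with that pattern is not reported here. Whether *Tle4* and *Pax7* are linked was not tested. *Aes*, the most abundant of the family, was 4152 to 4408, 3989 to 4310 and 3690 to 4143.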

How the data were processed

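RNA-seq of P0 cortex gave 9 libraries in the 3 genotypes of the labels, each from 1 pup. The authors deposited a table of 24624 genes whose values are a normalized signal, reads per gene divided by a size factor and printed to 2 decimals. The submitters' processing notes name Bowtie, STAR, DESeq and mm10, and the study's methods name TopHat, Bowtie and DESeq. The counting rule and the use of strand are not given in the sources used here. No row is 0 in every library.

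Whole reads were recovered by dividing by the value of 1 read (tolerance 0.02 reads, values of 20 to 200), and 100.0% of values were whole in each library. Totals were 18716575 to 25127623 reads. log2(value + 1) was tested with limma 3.58.1 in R 4.3.3 over the 16197 genes averaging at least 10, fitting 1 coefficient per genotype and no covariate. The Benjamini-Hochberg adjusted p threshold was 0.05. With 2 EnR libraries, their spread is that of all groups. Alternatives were other pseudocounts and filters, TMM and median-ratio scaling, fits of just the 2 genotypes in question, a litter block, litter m1 by itself, the omission of each library, and edgeR 4.0.16 and DESeq2 1.42.0 on recovered reads. Coordinates and lengths come from GENCODE M21 (GRCm38), in which 24595 identifiers were found, and Pandas 2.3.3, SciPy 1.17.1 and Matplotlib 3.10.9 were used. The paired box genes and the marker lists were chosen with earlier results of these data known. Genes named from a list were those called, or else the most abundant and that with the largest change, beside the 5 genes most like *Pax7* or *Pax6* and the 3 neighbours on each side of *Pax7*. The most abundant gene of the cortical identity list is not reported here, and *Tbr1* of that list, the defining muscle and midbrain genes near 0, *Isl1*, *Neurog2* and *Myh8* were named outside this rule, after their values were seen. P-values set a difference between genotypes against the spread between these libraries, and pups of the same litter were treated as independent.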

Additional observations from a re-analysis of the deposited data

Results flagged for a closer look

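For 52 genes named in the text, the 4 *Fezf2-/-* libraries were examined for a library far from the other 3, by the gap of the extreme library to its nearest neighbour divided by the whole range, and 7 genes had one. Chance flags about 1 in 20 groups. *Six3* had a ratio of 0.866, from the value of 96.41 in bc204 against 5.21 to 17.44 in the others. *Isl1* had a ratio of 0.866, also from bc204, at 138.6 against 2.49 to 20.7. *Tle4* had a ratio of 0.925, from bc206 at 820.46 against 977.4 to 990.07 in the others. *Col3a1* had a ratio of 0.981, from 175.43 in bc205 against 99.67 to 101.12. *Tal1* had a ratio of 0.896, from 30.73 in bc207 against 36.49 to 37.16. *Ckm* and *En1* each had a ratio of 1.0, from a single library with 1 or 2 reads against 0 in the others. *Pax7* and *Pax6* had no such library. No cause was tested.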

How the results depend on the processing

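The *Pax6* log2 fold changes kept their direction under every alternative run. The *Pax7* mean in *Fezf2-/-*, 57.5, was 49.4 to 63.6 over 7 alternatives. The *Pax6* adjusted p stayed over 0.05 in all fits, with log2 fold changes from 0.01 to 0.34 (*Fezf2-/-* against *Fezf2+/+*), 0.17 to 0.65 (EnR libraries against *Fezf2-/-*) and 0.35 to 0.81 (EnR libraries against *Fezf2+/+*), and at an unadjusted p under 0.05 the last, 0.57, was past the threshold. The genotypes share no replicate numbers, and litter as a block was the fit that tied them, in which, of *Pax6*, *Tle4*, *Lum*, *Eomes* and *Emx1*, *Lum* alone lost a call (EnR libraries against *Fezf2-/-*, 2.43). *Lum* in the EnR libraries against *Fezf2+/+*, not called, reversed to 0.02 without bc201 and 0.34 without bc209 (range -0.53 to 0.34 over libraries left out). The call of *Emx1* was lost in 10 of 24 alternatives, that of *Eomes* in the EnR libraries against *Fezf2-/-* in 8 of 23, and that of *Lum* in 4 of 23 against *Fezf2+/+* and 14 of 21 against *Fezf2-/-*. The number of genes called in *Fezf2-/-* against *Fezf2+/+*, 139, was 221 with only the 2 groups compared, 233 in litter m1 alone, 315 with DESeq2, 1752 at an unadjusted p under 0.05 and 66 (without bc201) to 217 (without bc209) with 1 library left out. In the EnR libraries against *Fezf2-/-*, 124 became 67 with only the 2 groups compared, 454 with DESeq2, 2741 unadjusted and 21 (without bc209) to 1088 (without bc208). In the EnR libraries against *Fezf2+/+*, 19 became 10 with a filter at a mean of 50, 12 with only the 2 groups compared, 32 with litter as a block, 641 with DESeq2, 3118 unadjusted and 8 (without bc209) to 491 (without bc208). Chosen after the data were seen, edgeR on 7 libraries gave 654 and 210 in the last 2 comparisons, and leaving out both bc204 and bc208 gave 809 and 276. The causes were not tested. Values near 3 reads limit *Pax2* and *Pax5*.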
